A study of Mus musculus with 6 samples.

Results

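Intermediate filament genes of neurons and their precursors, chosen by name (Prph, Nefl, Nefm, Nefh, Ina, Vim and Nes), made up 7 of the 19937 genes measured on mouse arrays. Each was taken from the probe sets that the platform annotation assigns to exactly 1 gene symbol, and all 7 had one. Only Ina had more than 1 such probe set, and the brighter was used. RNA came from 3 samples of MTT cells and 3 samples of MPC cells, and each was hybridised to 1 Affymetrix Mouse Gene 1.0 ST array. Per the study's methods, MPC is a mouse pheochromocytoma line established from NF1 knock-out animals and described there as well differentiated. MTT was obtained from tumours that MPC cells had formed in the liver, and it grows fast. The labels name no treatment for either line. The methods describe how MTT cells were grown and arrayed but not the MPC arrays. The labels give all 6 samples the same source, a pheochromocytoma metastatic to liver, so the MPC grouping rests on the title and the cell type. Each line is a single line, and nothing says that its samples came from separate cultures, so the p-values measure only the spread between these samples, which may be technical.

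Intermediate filaments are the rope-like part of the cytoskeleton, and the cell type sets which of their genes are used. Neurofilaments of mature neurons are built from the light, medium and heavy subunits (encoded by Nefl, Nefm and Nefh) together with alpha-internexin (Ina), and the light subunit is the one on which the others assemble. Peripherin (Prph), a type III filament protein, is best known from peripheral and sympathetic neurons. Vimentin (Vim), also of type III, is typical of mesenchymal and of many cultured cells, and nestin (Nes) is typical of neural progenitors. Chromaffin cells of the adrenal medulla share the neural crest origin of sympathetic neurons.

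Values are log2 RMA signals, so that a difference of 1 is 2-fold, and differences are MTT minus MPC on that scale. A gene was said to differ at a Benjamini-Hochberg adjusted p under 0.05, over all genes, in limma's moderated test. The median signal was 7.73 to 7.76 on the MTT and 7.73 to 7.77 on the MPC arrays. Both lines expressed chromaffin genes. Of the 11 measured chromaffin markers, 9 lay above the median probe set signal, 2 were higher and 3 lower in MTT cells, and Th, tyrosine hydroxylase, averaged 13.46 ± 0.02 in MTT and 13.49 ± 0.03 in MPC cells (log2 signal, SD, n = 3 each). Of 36 measured markers of fibroblasts, Schwann or sustentacular cells, endothelium, immune cells, hepatocytes and adrenal cortex, 9 lay above that median, and none differed between the lines (limma adjusted p under 0.05, with 1 at an unadjusted p under 0.05). Over all genes, 1569 of 19937 differed (7.87%), 784 higher and 785 lower in MTT cells.

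Of the 7 filament genes, 3 differed between MTT and MPC cells against a background of 7.87% of all genes. The 7 were chosen with earlier results of these data known, so this comparison is no test of the family. Prph and Nefh were lower in MTT cells (3.94% of all genes were lower), Ina was higher (3.93% of all genes were higher), and Nefl, Nefm, Vim and Nes did not pass the test. The family did not move in one direction: the largest difference was that of Prph at -1.01 on the log2 scale, and that of Ina was 0.21 in the opposite direction. The median log2 difference of the 7 genes was 0.02, against -0.01 over all genes, and their median absolute difference was 0.12, against 0.05. These values for all genes are not matched for signal, and 6 of the 7 lay above the median probe set signal. In a fit of only the genes above that median, 4 of 6 passed, against 19.4% of the 11415 genes tested. Only Prph passed (1 of 7) when any MTT array, MPC replicate 1 or MPC replicate 2 was left out. The share of all genes that passed was also smaller in those fits, at 4.47% to 5.34%. The same 3 genes passed without MPC replicate 3, where 6.4% of all genes passed.

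**Figure D1:**
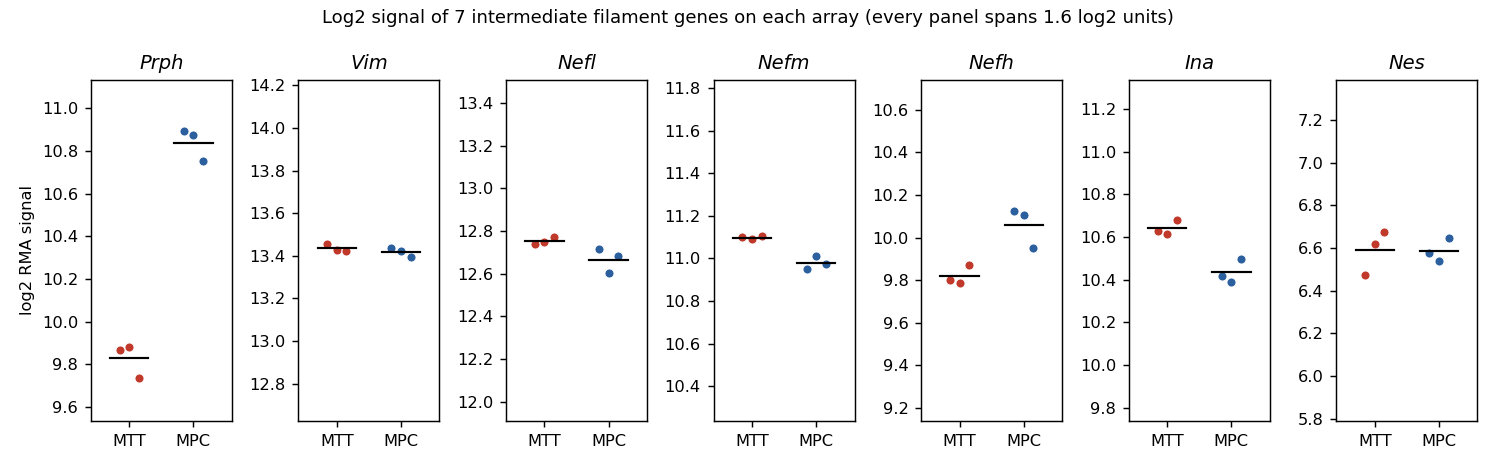
Log2 RMA signal (vertical axis) of the 7 genes in MTT cells (red points, 1 for each of 3 arrays) and in MPC cells (blue points, likewise 3), with each bar the mean of 3. Every panel spans the same height of 1.6 log2 units. Prph averages 9.83 in MTT and 10.84 in MPC cells, while the points of Vim and Nes overlap between the lines.

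Prph encodes peripherin. Its log2 signal was 9.87, 9.88 and 9.74 on the 3 MTT arrays, against 10.89, 10.87 and 10.75 on the 3 MPC arrays. The highest MTT array lay well below the lowest MPC array, and the distance between the lines was far greater than the spread within either. The mean was 9.83 ± 0.08 in MTT and 10.84 ± 0.08 in MPC cells (SD, n = 3 each), a log2 difference of -1.01 (95% interval -1.14 to -0.89, limma adjusted p = 2.62e-05), or 2.01-fold lower in MTT cells. Prph was among the 33 genes (0.166% of all tested) that passed the test with a difference of at least 2-fold, and 16th among all genes in order of decrease. It sat close to that limit, and its log2 difference was -0.97 without MTT replicate 3, -0.98 without MPC replicate 1 and -0.99 without MPC replicate 2, each just under 2-fold.

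The change of Prph was not shared by its surroundings. Prph lies on chromosome 15, and none of the 5 nearest measured genes on either side passed the test, with log2 differences between -0.09 and 0.11. The gene just before it in RefSeq order, Tuba1a, an alpha-tubulin of neurons, had a log2 difference of 0.11, and the gene just after it, Troap, which encodes a protein of the mitotic spindle, one of 0.05. The genes whose values over the 6 arrays ran closest to those of Prph, each gene centred on its own mean, were Tlcd4 (root mean square distance 0.06 on the log2 scale), Emp1, a membrane protein of epithelia (0.07), and the transcription factor Nfix (0.07). Their log2 differences were -1.08, -0.92 and -0.95. For any member, genes chosen in this way have a difference close to its own, so that closeness is no separate result.

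Set against the other members within each array, the position of Prph moved by -0.77 relative to Nefh and by -1.22 relative to Ina, the smallest and largest of 6 such comparisons. All 6 gave an exact two-sided permutation p of 0.1, also after Benjamini-Hochberg adjustment, which is the smallest value that 3 arrays against 3 allow. In MTT cells, for example, the log2 signal of Prph minus that of Ina was -0.76, -0.73 and -0.94, and in MPC cells it was 0.48, 0.49 and 0.25. The sign of such a value also depends on the probes of the 2 genes, so only its shift between the lines can be read.

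Vim, the other type III gene of the group, showed no such difference. It read 13.45, 13.43 and 13.42 in MTT cells, against 13.44, 13.42 and 13.39 in MPC cells. The arrays of the lines overlapped throughout. The log2 difference was 0.02, with a 95% interval of -0.06 to 0.09 (limma adjusted p = 0.83). Of the 10 measured genes around Vim on chromosome 2, Pter, Cubn and Trdmt1 were lower in MTT cells, with log2 differences of -0.24, -0.19 and -0.16. Of all genes, 3.94% were lower. The signal of Cubn was low, at 6.39 in MTT and 6.58 in MPC cells. That is below the 95th percentile of olfactory receptor genes (7.16), so it is not shown to be above background. Vimentin is abundant in fibroblasts. The unlogged signals of the 8 fibroblast markers were summed on each array, which gives the brightest markers the most weight. The log2 of that sum ranged between 10.47 and 10.54 in MTT cells and between 10.47 and 10.59 in MPC cells. Of those 8 markers 3 lay above the median probe set signal and none passed the test, among them Col1a1 with a log2 difference of -0.03 and Pdgfra, at 7.25 in MTT and 7.30 in MPC cells.

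The proximal promoters of Prph and Vim can be read beside this contrast, with that of Ina, the gene that went the other way. Each run below is the 250 bases before the 1 start site that the promoter table gives for the gene, 5′ to 3′ on the plus strand, from RefSeq on GRCm38.p6, with matches to the TATA box (TATAAA) and to the GC box (GGGCGG) in capitals, both strands searched. They lie at chr15:99054924-99055173 for Prph, chr2:13574061-13574310 for Vim and chr19:47014431-47014680 for Ina. The windows of Vim and Ina end where the gene's RefSeq span begins, whereas the span of Prph begins farther upstream, so its window lies within that span and before another start.
Prph: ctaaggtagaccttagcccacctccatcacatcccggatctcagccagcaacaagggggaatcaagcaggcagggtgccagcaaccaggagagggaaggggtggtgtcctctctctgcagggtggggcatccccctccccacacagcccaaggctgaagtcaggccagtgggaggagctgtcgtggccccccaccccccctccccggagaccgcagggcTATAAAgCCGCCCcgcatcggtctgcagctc
Vim: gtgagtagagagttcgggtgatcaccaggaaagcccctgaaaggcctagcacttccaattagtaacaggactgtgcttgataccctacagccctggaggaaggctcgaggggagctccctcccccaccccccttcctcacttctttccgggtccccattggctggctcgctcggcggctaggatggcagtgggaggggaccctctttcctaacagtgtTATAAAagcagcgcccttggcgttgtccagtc
Ina: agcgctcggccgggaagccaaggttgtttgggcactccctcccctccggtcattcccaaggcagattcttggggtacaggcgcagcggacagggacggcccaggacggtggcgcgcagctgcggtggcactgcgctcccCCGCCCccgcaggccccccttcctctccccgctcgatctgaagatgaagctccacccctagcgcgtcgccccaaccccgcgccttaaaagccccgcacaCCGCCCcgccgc

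Prph and Vim both carry a TATA box, beginning at positions -31 and -32, counted back from -1 just before that start site, although only Prph differed between the lines. Such a match is found in 12.4% of the 32851 promoter windows of this length. The Prph window also has 1 GC box, beginning at position -24 and not overlapping the TATA box, and the Ina window has 2 GC boxes and no TATA box by these letters. The Vim window has no GC box and 2 CCAAT boxes (CCAAT). GC boxes occur in 32.7% and CCAAT boxes in 33.8% of all windows. Neither the AP-1 letters TGANTCA (6.75% of windows) nor the cyclic AMP response element TGACGTCA (1.55%) occur in the windows of Prph, Vim, Ina or Nes, the 4 members matched in the promoter table. The E box letters CANNTG occur in the Ina window alone among these 4, at position -135, and in 66.2% of all windows. A match is a run of letters and not a measured binding site.

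Among the neurofilament triplet, the heavy subunit separated from the light and medium ones. Nefh, whose long tail is heavily phosphorylated in mature axons, was lower in MTT cells. Its signal was 9.80, 9.79 and 9.87 in MTT cells, against 10.12, 10.10 and 9.95 in MPC cells. The lines did not overlap, although MPC replicate 3 lay close to the highest MTT array. The log2 difference was -0.24 (standard error 0.05, 95% interval -0.36 to -0.12, limma adjusted p = 0.0271), or 1.18-fold lower. This call ended without any one of MTT replicates 1, 2 and 3 and MPC replicates 1 and 2 (limma adjusted p 0.0505 to 0.104, log2 difference -0.27 to -0.21), and it held without MPC replicate 3 (limma adjusted p = 0.00817, log2 difference -0.29). It also ended with ordinary variances (adjusted p = 0.139).

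Nefl, the light subunit, read 12.74, 12.75 and 12.77 in MTT cells, against 12.71, 12.60 and 12.68 in MPC cells. All MTT arrays lay above all MPC arrays, an arrangement that 27.2% of all genes share in one direction or the other and that 5 of the 7 filament genes show. The log2 difference was 0.09 (95% interval -0.00 to 0.18), and it did not pass (limma adjusted p = 0.254). Nefm, the medium subunit, read 11.10, 11.09 and 11.10 in MTT cells, against 10.95, 11.01 and 10.98 in MPC cells. Its MTT arrays lay very close together (SD 0.01) and above every MPC array. The log2 difference was 0.12 (95% interval 0.04 to 0.19) and missed the threshold (limma adjusted p = 0.0685). It passed with a mean-variance trend (limma adjusted p = 0.0108), among genes above the median signal (0.0183), after cyclic loess (0.0496) and with the median of its chromosome removed (0.0422).

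Nefl and Nefm stand next to each other on chromosome 14 among the genes measured. Their other neighbours, up to 5 on either side, had log2 differences from -0.14 for Kctd9 to 0.08, and none passed. Within an array, the log2 signal of Nefm minus that of Nefl was -1.64, -1.66 and -1.67 in MTT cells and -1.76, -1.59 and -1.71 in MPC cells, so the lines overlapped. That of Nefh minus Nefm was -1.30, -1.30 and -1.23 in MTT cells and -0.83, -0.91 and -1.02 in MPC cells, a shift of -0.36 with no overlap. These pairs were chosen after the values were seen and carry no test. On chromosome 11, the 5 measured genes on either side of Nefh lay between -0.06 and 0.23 and none passed. Immediately beside it, Thoc5, of an mRNA export complex, had a log2 difference of 0.08 and Ap1b1, of a clathrin adaptor, also one of 0.08. The genes nearest to Nefh in pattern over the 6 arrays were Il17rb, Pank1 and Mgll, each at a distance of 0.02 and with log2 differences of -0.26, -0.26 and -0.22.

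**Figure D2:**
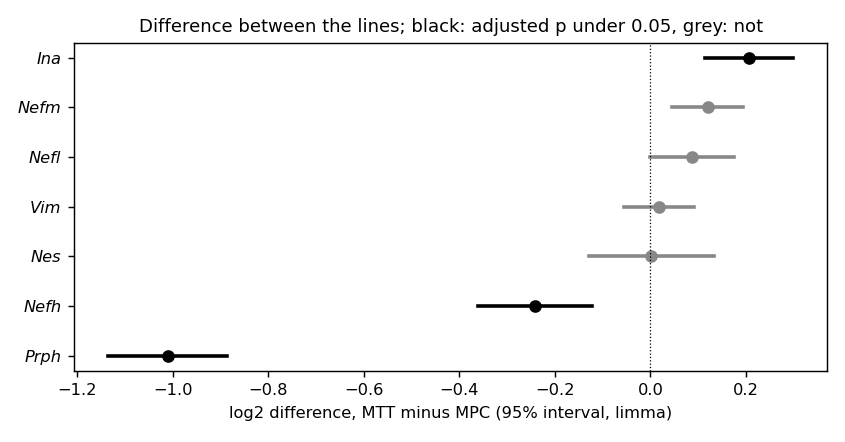
Log2 difference between the lines (horizontal axis, MTT minus MPC) of each gene (vertical axis), with the 95% interval from limma as a bar. Black marks an adjusted p under 0.05 and grey the rest. Ina lies at 0.21, Nefh at -0.24 and Prph at -1.01, and the intervals of Nefl, Vim and Nes reach across 0.

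Ina encodes alpha-internexin, which joins the triplet in the neurofilaments of some neurons and appears early in developing neurons. It read 10.63, 10.62 and 10.68 in MTT cells, against 10.42, 10.39 and 10.50 in MPC cells. All MTT arrays were above all MPC arrays, with MPC replicate 3 nearest to them. The mean was 10.64 ± 0.03 in MTT and 10.43 ± 0.06 in MPC cells (SD, n = 3 each), a log2 difference of 0.21 (95% interval 0.11 to 0.30, limma adjusted p = 0.0181), or 1.15-fold higher. The second probe set of Ina read 10.59, 10.49 and 10.61 in MTT cells, against 10.40, 10.27 and 10.32 in MPC cells. It went the same way by a similar amount, with a log2 difference of 0.24 (limma adjusted p = 0.0227 over all probe sets). As for Nefh, the call ended without any one of MTT replicates 1, 2 and 3 and MPC replicates 1 and 2 (limma adjusted p 0.0537 to 0.0702, log2 difference 0.18 to 0.22), held without MPC replicate 3 (limma adjusted p = 0.0145, log2 difference 0.24) and ended with ordinary variances (adjusted p = 0.0804).

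Ina is the only member on chromosome 19, and there it stood against its surroundings. Of the 379 genes of this chromosome above the median signal, 104 were lower (27.4%) and 5 were higher (1.32%) in MTT cells, with a median log2 difference of -0.11. Ina was among the 5 with a difference of 0.21 or more, and it lay 0.31 above the chromosome's median. The 10 measured genes nearest to it all had negative differences, from -1.22 to -0.01, and 5 of them passed the test, namely As3mt at -1.22, Nt5c2, Taf5, Cnnm2 and Borcs7 (the last 4 between -0.24 and -0.18). On one side stood Nt5c2, a cytosolic nucleotidase, at 10.78 in MTT and 11.02 in MPC cells (limma adjusted p = 0.00281), and on the other Pcgf6, of a Polycomb complex, at 11.07 in MTT and 11.08 in MPC cells. With the median of each chromosome removed from every array, the log2 difference of Ina was 0.31 (limma adjusted p = 0.00634). The genes closest to Ina in pattern lay on other chromosomes: Kalrn, which encodes a protein of dendritic spines, Lims2, an adhesion protein, and Lrrc4b, a synaptic adhesion protein, at distances of 0.01, 0.02 and 0.02, with log2 differences of 0.20, 0.23 and 0.20.

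**Figure D3:**
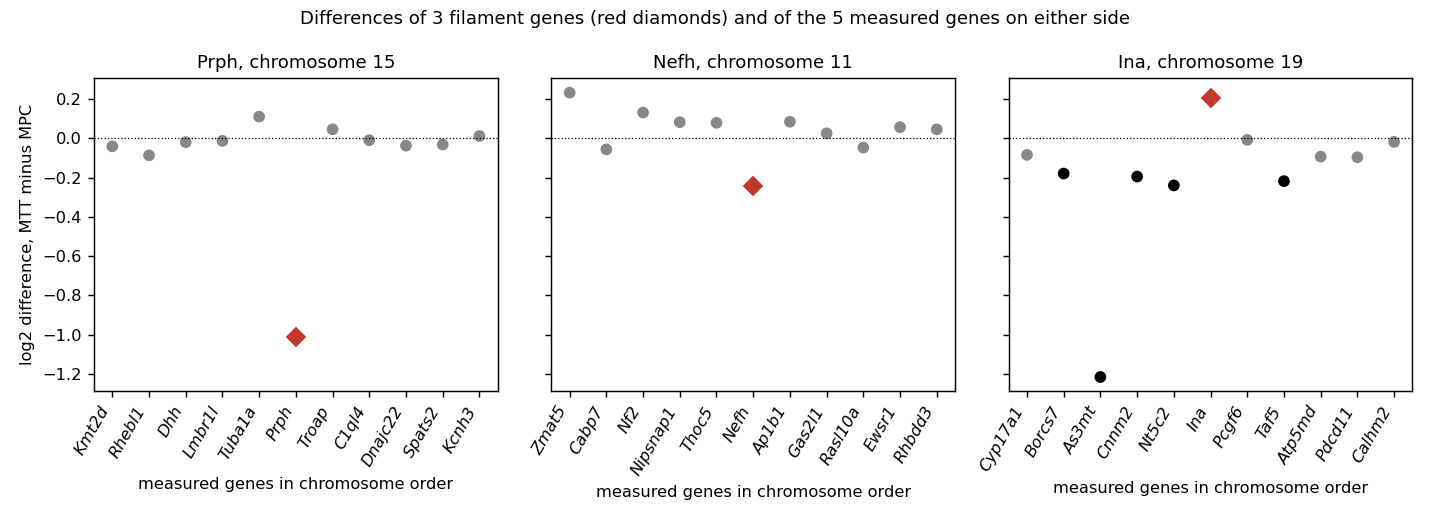
Log2 difference between the lines (vertical axis, MTT minus MPC) of Prph, Nefh and Ina (red diamonds) and of the 5 measured genes on either side in RefSeq order (points, black for an adjusted p under 0.05). The neighbours of Prph and Nefh stay within -0.09 to 0.23, while those of Ina all lie below 0 and Ina lies above it.

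MPC replicate 3 was the MPC array nearest to MTT cells for Prph, Nefh and Ina alike. Over all 1569 genes that differed, it was the nearest MPC array for 33.2%, against 35.2% for MPC replicate 1 and 31.6% for MPC replicate 2.

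Nes, which encodes nestin, was the only member whose signal lay below the median probe set signal of 7.74. It read 6.48, 6.62 and 6.68 in MTT cells, against 6.58, 6.54 and 6.65 in MPC cells, and the lines overlapped. The log2 difference was 0.00 (95% interval -0.13 to 0.13, limma adjusted p = 0.992). Olfactory receptors, which these cells are not known to use, give a rough view of low signals: their 1015 genes had a median of 5.16 and a 95th percentile of 7.16. The Nes signal lay under that percentile in both lines, so it is not shown to be above background, and a difference could be hidden there. None of the 10 measured genes nearest to Nes on chromosome 3 passed.

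Around these members, 65 of 75 listed genes of filament biology had a probe set of their own, in 8 lists. Of the 65, 8 were higher and 4 lower in MTT cells (18.5%, against 7.87% of all genes). The lists were chosen with earlier results of these data known, so this comparison is no test of them. The share of all genes is not matched for signal, and 49 of the 65 lay above the median probe set signal. In a fit of only the genes above that median, 19 of 49 passed, against 19.4% of the 11415 genes tested. Of the 12 calls in the main fit, 5 held whichever single array was omitted, and 7 did not. The count was 6 without MTT replicate 1, 5 without MTT replicate 3, 8 without MPC replicate 3, and 7 without any one of MTT replicate 2, MPC replicate 1 and MPC replicate 2. In the same fits the share of all genes that passed was also smaller, at 4.47% to 6.4%.

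Of 15 other intermediate filament genes, 1 was higher and 2 were lower. Krt18 and Krt8, the partner keratins of simple epithelia, which assemble only with each other's type, moved in opposite directions. Krt18 was 9.86 ± 0.06 in MTT and 9.41 ± 0.03 in MPC cells (SD, n = 3 each; log2 difference 0.46, limma adjusted p = 0.000335). Krt8 was 8.80 ± 0.03 in MTT and 9.05 ± 0.06 in MPC cells (SD, n = 3 each; log2 difference -0.26, limma adjusted p = 0.00622). Both calls held without any single array. Keratin genes have closely related copies, and how far those share signal was not tested. Lmnb1, of the nuclear lamina, fell by 0.16 (limma adjusted p = 0.0467) but passed in none of the 6 fits without 1 array (limma adjusted p up to 0.161). Des, the muscle type III filament, missed the threshold (log2 difference 0.15, limma adjusted p = 0.0697). It passed with a mean-variance trend (limma adjusted p = 0.033), among genes above the median signal (0.0214), after cyclic loess (0.0491) and without MPC replicate 1 (0.0421). Gfap, the astrocyte type III filament, did not pass (log2 difference -0.03, limma adjusted p = 0.871).

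None of the 7 measured cross-linkers, the plakins that tie filaments to actin, microtubules and junctions, passed limma's test, with 1 at an unadjusted p under 0.05. Dst, which encodes dystonin, a filament linker of sensory neurons, had a log2 difference of 0.03, and Plec one of -0.02. Of 7 genes of filament turnover and chaperones 1 was higher. Cryab, a small heat shock protein that binds type III filaments such as desmin, was 9.46 ± 0.10 in MTT and 8.67 ± 0.07 in MPC cells (SD, n = 3 each). Its log2 difference of 0.79 (limma adjusted p = 0.000143) held without any single array. Hspb1, a related small heat shock protein, was 7.92 in MTT and 7.94 in MPC cells and did not pass.

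Of 9 measured kinases and phosphatases of neurofilament tails, 2 were higher, and both encode activators of the kinase Cdk5, which phosphorylates the tails of the medium and heavy subunits. Cdk5r1, which encodes p35, was 8.71 ± 0.04 in MTT and 8.50 ± 0.06 in MPC cells (SD, n = 3 each; limma adjusted p = 0.0219), and the log2 difference of Cdk5r2, which encodes p39, was 0.23 (limma adjusted p = 0.0450). With 1 array left out, Cdk5r1 failed to pass in 4 of 6 cases and Cdk5r2 in 5 (limma adjusted p up to 0.0865 and 0.146). Both calls also ended with ordinary variances (adjusted p = 0.101 and 0.181). They ended as well with chromosome medians removed (limma adjusted p = 0.0519 and 0.0532), and that of Cdk5r2 without chromosomes 13 and 19 (0.0555). The kinase Cdk5 itself had a log2 difference of -0.13 and missed the threshold (limma adjusted p = 0.0683). Of 7 transport motors 1, Kif5c, a kinesin heavy chain, rose by 0.14 (limma adjusted p = 0.0437), but passed in none of the 6 fits without 1 array (limma adjusted p 0.0588 to 0.128).

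Of 7 microtubule-associated proteins 1 was higher and 1 lower. Map1b, on chromosome 13, rose by 0.16 (limma adjusted p = 0.0352), with the limit that its difference was -0.02 once the median of that chromosome, 0.18, was removed. Dcx was lower by a log2 difference of -0.23, at a signal of 5.86 in MTT and 6.09 in MPC cells, below the 95th percentile of the olfactory receptors. With 1 array left out, Map1b failed to pass in 5 of 6 cases and Dcx in 4 (limma adjusted p up to 0.123 and 0.121).

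Among regulators, Elavl3, a neuronal RNA-binding protein, rose by 0.26 (limma adjusted p = 0.00922) and its relative Elavl2 fell by 0.17 (limma adjusted p = 0.0148), the only calls among 4 measured RNA-binding genes. The call of Elavl3 ended with ordinary variances (adjusted p = 0.0698). The call of Elavl2 ended in 4 of the 6 fits without 1 array (limma adjusted p up to 0.0626). Of 9 transcription regulators Isl1, a LIM homeodomain factor of sympathetic and sensory neurons on chromosome 13, rose by 0.31 (limma adjusted p = 0.00137), and its difference was 0.12 and no longer passed with the median of that chromosome removed (limma adjusted p = 0.0684). Rest, the repressor of neuronal genes, missed the threshold at -0.16 (limma adjusted p = 0.179). It passed without MPC replicate 2 (log2 difference -0.23, limma adjusted p = 0.0313) and in no other alternative.

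**Figure D4:**
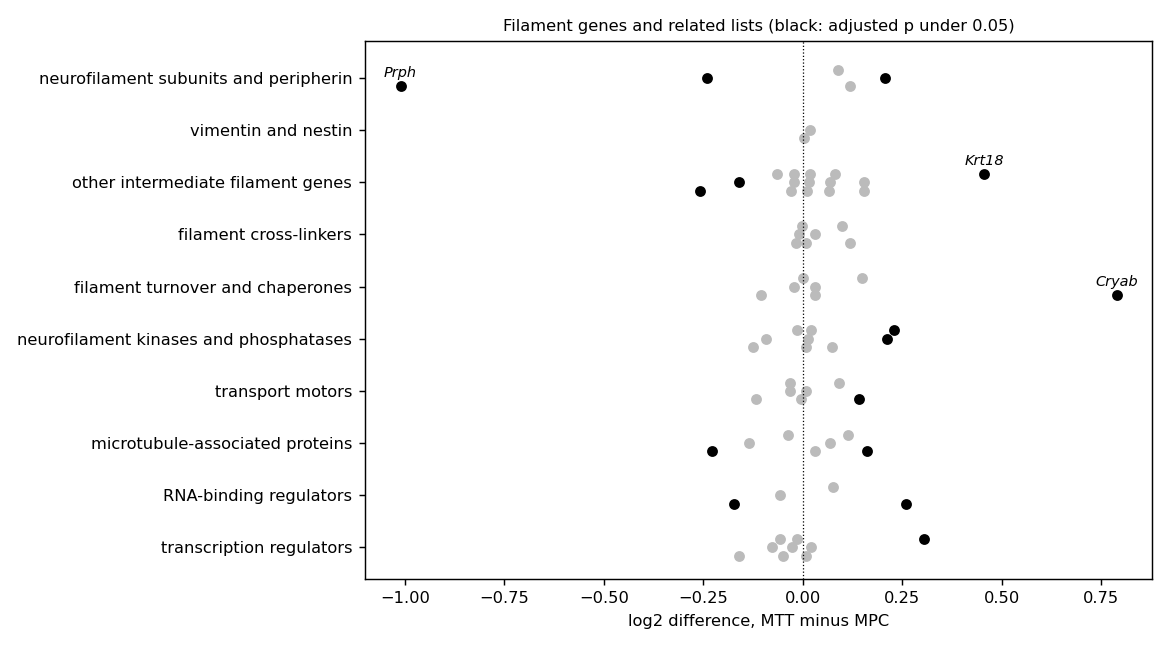
Log2 difference between the lines (horizontal axis, MTT minus MPC) of the filament genes and of 8 related lists (rows). Each point is 1 gene, black for an adjusted p under 0.05, grey for the rest, and vertical offsets only separate points. Prph at -1.01 lies farthest from 0, and Cryab at 0.79 and Krt18 at 0.46 lie farthest in the other direction.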

How the data were processed

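RNA of 3 MTT and 3 MPC samples was measured on Affymetrix Mouse Gene 1.0 ST arrays. The authors deposited log2 values after RMA (background subtraction, quantile normalization and summary of probes), named in the methods in Partek and R; the submitters' processing notes add Affymetrix Expression Console. Their versions and the genome build: not given in the sources used here. The values are not the gene-wise Z-scores that the methods mention.

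Of 34760 probe sets, 21640 have 1 gene symbol, and the brightest per gene gave 19937 genes. The lines were compared in limma 3.58.1 (lmFit, eBayes, two-sided, R 4.3.3), Benjamini-Hochberg adjusted over all genes, threshold 0.05; figures used Python 3.11.15 and matplotlib 3.10.9. Gene names and order came from RefSeq GRCm38.p6. The members and lists were chosen with earlier results of these data known. Of each list, up to 4 genes past the threshold and key regulators are named, with a few others chosen after their values were seen; neighbours and the 3 nearest genes are given for members past it. One list of genes is not reported here. On simulated data of this comparison (19937 genes), 100 of 100 genes changed by 1 and 48 of 100 changed by 0.25 on the log2 scale were recovered, with 9 false calls of 157. The simulation drew noise independently for each gene, and 157 genes were called there against 1569 in the data. Its recovery at 0.25 therefore does not give the power of this comparison. The number of arrays limits the precision. Alternatives were other variance models, a replicate block, other handling of probe sets, dim genes, normalization and chromosomes, and leaving out each array.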

Additional observations from a re-analysis of the deposited data

How the results depend on the processing

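Prph was lower in all 16 alternatives (log2 difference -1.06 to -0.97, adjusted p 1.12e-08 to 0.0142), and Nefl and Vim did not pass in any of 16. With ordinary variances 824 genes passed, against 1569, and 1 filament gene in place of 3, since Ina (0.21, adjusted p = 0.0804) and Nefh (-0.24, adjusted p = 0.139) ended. With a mean-variance trend 2416 genes passed. Nefm passed with that trend (0.12), among genes above the median signal (0.12), after cyclic loess (0.13) and with chromosome medians removed (0.14). The replicate numbers did not pair the samples: deviations of same-numbered arrays correlated at 0.12, 0.07 and 0.25. With the replicate block, 1501 genes passed and the call of Nefh ended (-0.24, limma adjusted p = 0.0556), while no other filament gene changed its call. Without 1 array, 891 to 1276 genes and 1 to 3 filament genes passed, the difference of Ina was 0.18 to 0.24 and that of Nefh -0.29 to -0.21. That of Nes was -0.041 to 0.060 and so changed sign. Nes had no value among genes above the median signal, nor Ina without chromosomes 13 and 19. Genes of the related lists that passed numbered 12 of 65 in the main fit, where 7.87% of all genes tested passed. They numbered 6 of 65 with ordinary variances (4.13% of all genes tested) and 21 of 65 with the trend (12.1%). Among genes above the median signal they numbered 19 of 49 (19.4%). With chromosome medians removed they numbered 7 of 65 (6.54%), and without chromosomes 13 and 19 they numbered 7 of 62 (5.77%). The causes were not tested. A signal near background compresses differences, which limits Nes and Dcx. It also limits neighbours with low signals, such as Dhh near Prph (6.98 in MTT cells) and Adam7 beside Nefm (5.63). The same holds for markers of other cell types, of which only 9 of 36 lay above the median probe set signal.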
